A study of Mus musculus with 16 samples.

Results

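The nuclear-encoded subunits of the 5 oxidative phosphorylation complexes were followed in mouse ear skin. The genes were taken by symbol from the protein-coding rows of the count table: symbols of the Ndufa, Ndufb, Ndufc, Ndufs and Ndufv series, Sdha to Sdhd, symbols starting with Uqcr, the Cox4 to Cox8 series and symbols starting with Atp5. Ndufa4l2, Cox6a2, Cox7a1 and Cox8b were left out. This gave 80 of 22021 protein-coding genes, among 48440 genes in all: 36 of complex I, 4 of complex II, 8 of complex III, 15 of complex IV and 17 of complex V. No measured value entered the choice. The RNA came from ear skin of B6 mice that ate either normal chow (ND) or, for 8 weeks, a high-fat diet (HFD), with ears untreated or taken 24 h after 200 ng of PMA per ear. PMA, a phorbol ester, stimulates protein kinase C and inflames skin. Each of the 4 groups held 4 libraries: untreated ND (ND_cont), untreated HFD (HFD_cont), PMA-treated ND (ND_PMA) and PMA-treated HFD (HFD_PMA). The sources used here give neither the age of the mice nor whether untreated ears received the solvent, and do not say that every library came from a separate mouse, so p-values measure the spread between these libraries.

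Oxidative phosphorylation couples electron transport along the inner mitochondrial membrane to ATP synthesis. Complexes I and II pass electrons from NADH and succinate to ubiquinone, complex III passes them on to cytochrome c, complex IV reduces oxygen, and complex V uses the proton gradient to make ATP. Most subunits are encoded in the nucleus and imported, while a few core subunits are encoded by mitochondrial DNA. Skin epidermis relies largely on glycolysis, whereas muscle and brown fat are rich in these subunits. The symbols follow older naming. Ndufa4, grouped here with complex I, is today counted as a subunit of complex IV, and Atp5s and Atp5sl (now Dmac2l and Dmac2) belong to no core part of complex V.

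The 16 libraries held 7739487 to 15571389 counts, so that a gene at 1 CPM (count scaled to library totals, with TMM factors) had about 7.7 counts in the shallowest library. Of the 80 genes, 77 had enough counts to be tested. The 3 others, Cox6b2 (71 counts over all libraries), Cox8c (1 count) and Cox7b2 (0 counts), encode forms best known from testis. A count of 0 over the 16 libraries allows up to 3 counts, or 0.0169 CPM, so Cox7b2 was not detectable at this depth. The library IDs carry a prefix, RHS in all 4 ND_cont libraries and HFD_cont replicate 1 and RHP in the other 11, which no source used here explains. The replicates ND_PMA 2, HFD_cont 1 and HFD_PMA 1 stood apart in their levels of short subunit genes, as described further on, and values without them are given where they move a result. Markers of interfollicular keratinocytes (7 of 7 detected, summed level 16547 to 29099 CPM over the 16 libraries) and fibroblasts (6 of 6, 3794 to 10992 CPM) were high in every library. Skeletal muscle markers were also present, from 3893 to 14687 CPM, with Tnnc2 at most 0.494 CPM. Of the brown adipocyte markers, Ucp1, which defines brown fat, was at 0 in 12 of 16 libraries. Cidea (51.5 to 142.6 CPM) and Elovl3 (287 to 833 CPM), from the same list, were present in every library.

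Levels per length were highest for some subunits of complexes V and III. On the RPKM scale (CPM divided by the deposited gene length in kilobases), the mean over 16 libraries was 302 ± 49.2 (SD) for Atp5a1 and 296 ± 57.7 for Atp5b, which encode the alpha and beta subunits of the ATP synthase head. These did not differ beyond their spread. Uqcrc1, a core protein of complex III, followed with 243 ± 51.6 RPKM. Atp5c1 (gamma subunit, 160.2 ± 35.7 RPKM), Uqcrfs1 (the Rieske iron-sulfur protein, 144 ± 38.9 RPKM), Cox7a2l (143 ± 43.4 RPKM) and Sdha (134 ± 15.9 RPKM) were among the next, and neighbours of these 4 did not differ beyond their spread. At the lower end stood Ndufb4 (2.23 RPKM), Cox4i2 (2.20), Ndufb2 (1.87) and Atp5g2 (1.26). The 3 genes Atp5a1, Atp5b and Uqcrc1 took between 34.8% and 43.7% of all counts of the 80 genes in a library.

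**Figure D1:**
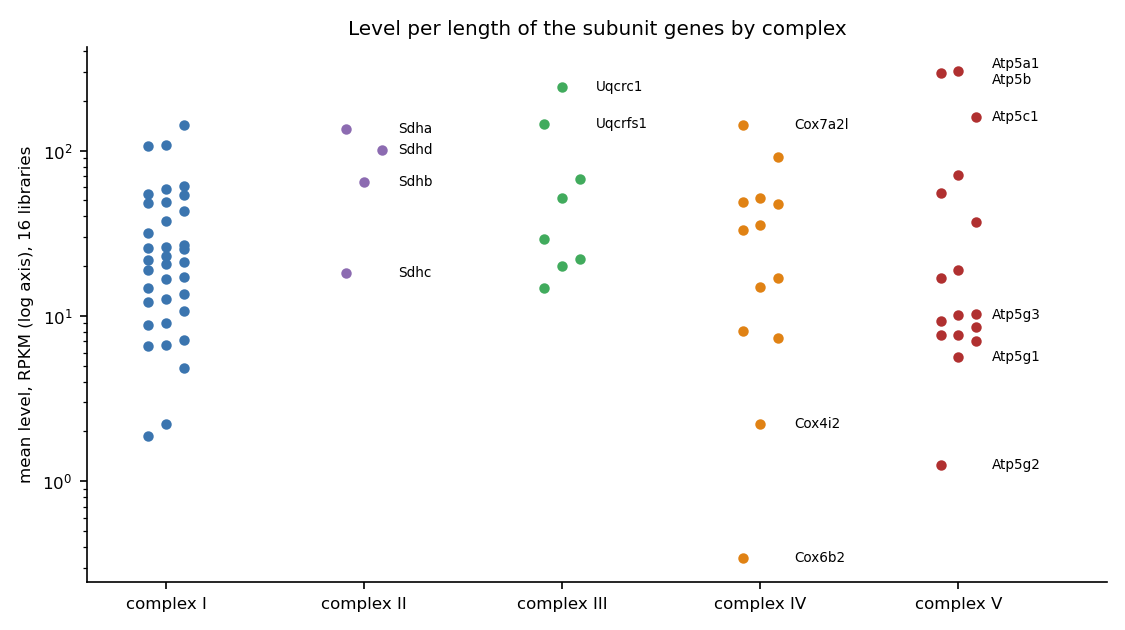
Mean level of each subunit gene over the 16 libraries in RPKM (log axis), by complex, with 1 point per gene; Cox8c and Cox7b2 are left out. Atp5a1, Atp5b and Uqcrc1 stand highest, at 302, 296 and 243 RPKM, and Cox6b2 lowest, at 0.342 RPKM.

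The order of levels depends in part on the length used and on how reads were assigned. With the coding transcript of GENCODE M21 in place of the deposited length, a choice made after seeing the data, Atp5b led (656 RPKM), ahead of Uqcrc1 (608 RPKM) and Atp5a1 (383 RPKM), and across the 77 genes the ranks of the 2 measures had a Spearman rho of 0.82 (across genes, which are not replicates). Near-identical annotated copies, at least 98% identical over a read length, exist for 13 of the genes, and reads that match a copy as well may not have been counted. The 13 had a median of 10.7 RPKM and none exceeded 55.3 RPKM (Atp5f1), against a median of 25.9 RPKM among the 64 others tested. These 13 are Ndufa12, Ndufb4, Ndufs3, Ndufs5, Uqcr11, Uqcrb, Cox5b, Cox7c, Atp5f1, Atp5g1, Atp5g2, Atp5h and Atp5l, and their levels are uncertain. A further uncertainty is that 27 of the 80 share exon bases with another gene, in 22 cases only with a gene of the other strand, which unstranded reads do not separate.

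Promoters of the set were searched for 3 motifs of factors known to control mitochondrial genes, on both strands of the window from 250 bases before to 50 bases after the RefSeq start (GRCm38.p6). Of the 80 genes, 67 matched the table, 3 of them through an older symbol. The NRF1 motif, spelled GCGCATGC or GCGCANGCG, was present in 21 of 67 (31.3%), against 7.97% of all 27025 genes of the table and 1672 of the 11112 genes that were protein-coding and tested here. AAGATGGCG, a YY1 motif, was present in 8 of 67 (11.9%) against 1.64% of all genes and 3.12% of those tested and protein-coding. CCGGAAG, an ETS motif that GABP recognises, was present in 16 of 67 (23.9%) against 9.93% and 17.7%. The 4 windows that follow belong to genes that passed a test below and hold such a motif before the RefSeq start. For Sdhb, Ndufa8 and Atp5c1 the gene annotated in GENCODE M21 begins upstream of the motif. They are shown because they let the sequence be read beside the change. Each is written 5′ to 3′ along the gene, with the motifs in capitals.
Sdhd (chr9:50603864-50603953, minus strand, NRF1 and then ETS): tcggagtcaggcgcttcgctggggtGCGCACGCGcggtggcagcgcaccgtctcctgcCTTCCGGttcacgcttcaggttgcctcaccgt
Sdhb (chr4:140961192-140961249, plus strand, NRF1): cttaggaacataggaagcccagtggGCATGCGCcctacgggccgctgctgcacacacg
Ndufa8 (chr2:36049339-36049392, minus strand, 3 NRF1 matches, the last 2 of which overlap): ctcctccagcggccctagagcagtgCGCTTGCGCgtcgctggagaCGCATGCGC
Atp5c1 (chr2:10080433-10080474, minus strand, NRF1): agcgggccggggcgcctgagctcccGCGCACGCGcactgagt
Members with an NRF1 match had a median log2 fold change under PMA of 0.37 in ND mice (n = 21) and those without one 0.36 (n = 44), and in HFD mice the medians were 0.18 and 0.20. For YY1 the medians with and without the motif were 0.21 (n = 8) and 0.38 (n = 57) in ND mice and 0.18 and 0.19 in HFD mice, and for ETS 0.41 (n = 16) and 0.36 (n = 49) in ND mice and 0.21 and 0.18 in HFD mice.

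The comparison of PMA-treated with untreated ears of ND mice asked how the subunits stood 24 h after the phorbol ester. The set stood higher: 12 of 77 genes rose and 1 fell, and 68 of 77 had a log2 fold change above 0. The median log2 fold change was 0.36, against 0.0013 over all 17604 genes tested. Over all genes 8.96% were called higher and 3.99% lower (edgeR quasi-likelihood test, Benjamini-Hochberg-adjusted p below 0.05), and 1399 of 11730 protein-coding genes with a mean of at least 5 CPM were called higher. The members' share called higher was 15.6%, and its difference from these backgrounds was not tested. As a share of all counts, the 80 genes took 0.681% ± 0.0443 (SD, n = 4) in ND_cont and 0.872% ± 0.0745 in ND_PMA, without overlap between libraries (0.629% to 0.734% against 0.816% to 0.976%). Levels of 20 members did not overlap between the groups with PMA higher and of 0 with PMA lower, where 10.6% and 6.25% of all genes did so. In bulk skin, fewer cells of a type and less RNA per cell cannot be told apart.

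In complex II 2 of 4 genes rose, and 1 of them had the largest increase among the 12. Sdhd, a membrane anchor of succinate dehydrogenase (chromosome 9, 50596357 to 50603812, GRCm38), stood at 102, 89.7, 75.4 and 63.9 CPM in ND_cont and at 145, 174, 136 and 109.7 CPM in ND_PMA. All 4 PMA-treated libraries lay above all 4 untreated ones. Its log2 fold change was 0.77 ± 0.16 (SE; edgeR adjusted p = 0.0025). Sdhb, the iron-sulfur subunit, had 107 ± 12.2 CPM in ND_cont and a higher 148 ± 33.6 CPM in ND_PMA (log2 fold change 0.47 ± 0.15, edgeR adjusted p = 0.0414), with overlap: 2 of the PMA-treated libraries, at 119 CPM each, lay below the highest untreated one at 121 CPM. The call of Sdhb was lost in 15 of 19 alternatives, among them those without ND_cont replicate 2, 3 or 4 or ND_PMA replicate 1 or 2. Sdhc, the other anchor, and Sdha, the flavoprotein, did not pass, at 0.20 ± 0.19 and 0.21 ± 0.10 on the log2 scale.

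In complex III, 2 of 8 genes rose and all 8 had a log2 fold change above 0, with a median of 0.52. Uqcrc1 (chromosome 9, 108936633 to 108949623) stood at 819, 738, 949.9 and 656 CPM in ND_cont and at 1263, 1361, 1111 and 1093 CPM in ND_PMA. The groups did not overlap, and its log2 fold change was 0.61 ± 0.11 (edgeR adjusted p = 0.00108). Uqcrc2, the other core protein, went up, with 136 ± 18.4 CPM in ND_cont and 190.2 ± 18.7 CPM in ND_PMA (log2 fold change 0.48 ± 0.12, edgeR adjusted p = 0.011). Its exons share 504 bases with Pdzd9 on the opposite strand.

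Complex V gave 3 of 17 genes that rose. Atp5b (chromosome 10, 128083273 to 128090391) stood at 909, 1016, 1127 and 729.7 CPM in ND_cont and at 1257, 1525, 1452 and 1408 CPM in ND_PMA, again without overlap. Its log2 fold change was 0.58 ± 0.12 (edgeR adjusted p = 0.00269). Atp5a1 had 773 ± 102 CPM without and a higher 1091 ± 76.0 CPM with PMA (log2 fold change 0.50 ± 0.11, edgeR adjusted p = 0.0033). Atp5o, which encodes the OSCP subunit that joins the head to the peripheral stalk, stood at 54.6, 57.0, 53.5 and 60.9 CPM in ND_cont and at 95.1, 109, 72.2 and 69.9 CPM in ND_PMA (log2 fold change 0.62 ± 0.16, edgeR adjusted p = 0.0129). Its groups did not overlap, but its call was lost without ND_PMA replicate 2 or without ND_cont replicate 3. Atp5o shares 945 exon bases with other genes, among them a second annotated gene of the same symbol on the same strand, so its level is uncertain. Of the genes for the membrane ring, Atp5g1 (0.75 ± 0.26) and Atp5g3 (0.67 ± 0.22) stood above 0 on the log2 scale but did not pass (edgeR adjusted p = 0.0608 and 0.0507).

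In complex I, 5 of 36 genes rose, and 4 of them are described here. Ndufv1, which binds NADH and the flavin, stood at 236, 214, 261 and 187 CPM in ND_cont and at 324, 358, 287 and 284 CPM in ND_PMA (log2 fold change 0.48 ± 0.11, edgeR adjusted p = 0.00741). No untreated library reached the lowest treated one. Ndufa8, an accessory subunit, had at most 39.1 CPM in ND_cont and from 42.8 to 66.8 CPM in ND_PMA, with a log2 fold change of 0.57 ± 0.15 (edgeR adjusted p = 0.015). Ndufs8, an iron-sulfur subunit, rose by 0.47 ± 0.14 on the log2 scale (edgeR adjusted p = 0.0358), a call lost in 14 of 19 alternatives, among them those without ND_cont replicate 2, 3 or 4 or ND_PMA replicate 1 or 2. Ndufa8 lost its call in 7 of 19, among them those without ND_cont replicate 2 or ND_PMA replicate 1 or 2. Ndufv2, another iron-sulfur subunit, also passed, at 0.43 on the log2 scale. The remaining 31 genes of complex I lay between -0.86 and 0.70 on the log2 scale.

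In complex IV none of the 12 tested genes rose, and 1 fell: Cox7a2l (chromosome 17, 83501918 to 83517330), which the symbol rule places there. Cox7a2l stood at 199, 183, 137 and 119.8 CPM in ND_cont and at 127, 125, 102 and 89.8 CPM in ND_PMA, with overlap. Its log2 fold change was -0.52 ± 0.17 (edgeR adjusted p = 0.0472). The call was lost when ND_cont replicate 1 or 2 or ND_PMA replicate 3 or 4 was left out. The median log2 fold change of the 12 was 0.23, and their summed share of counts was 0.0502% ± 0.00336 in ND_cont and 0.0518% ± 0.00771 in ND_PMA for the 15 genes of the complex.

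**Figure D2:**
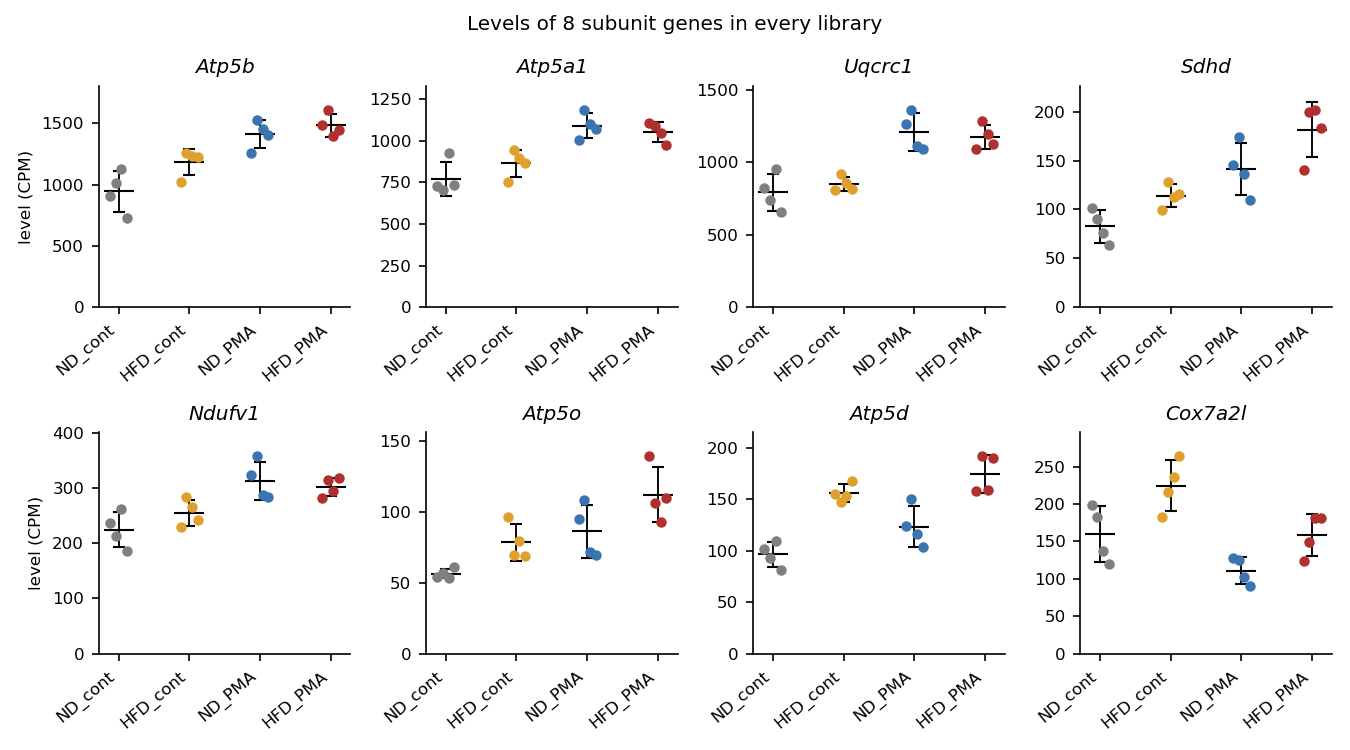
Levels in CPM of 8 subunit genes in every library, by group, with 1 point per library and the mean ± SD in black. In Atp5b, Atp5a1, Uqcrc1, Sdhd, Ndufv1 and Atp5o all ND_PMA libraries lie above all ND_cont libraries, while the means of Cox7a2l are lower with PMA in both diets and those of Atp5d are higher on HFD with and without PMA.

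The comparison in ND mice has 2 limits. All its untreated libraries carry the RHS prefix and all its treated ones RHP, so that PMA and prefix cannot be told apart there. In a fit with the prefix as a covariate, which rests on HFD_cont replicate 1, 0 of 77 genes passed, with Uqcrc1 at 0.51 (edgeR adjusted p = 0.282) and Sdhd at 0.51 (edgeR adjusted p = 0.474) on the log2 scale. Among all 17604 genes that fit called 388 higher and 65 lower, against 1577 and 702 without the covariate. In that fit the median was 0.15 for the 22 genes with a coding sequence of 600 bases or more, against 0.40 without the covariate. It was 0.95 against 0.28 for the 55 shorter ones, and 0.81 against 0.36 for all 77. Without ND_PMA replicate 2 and HFD_PMA replicate 1, left out after the data were seen, 6 genes passed in place of 13, and the median was 0.19. Without ND_PMA replicate 2 alone 7 genes passed and the median was 0.21. Uqcrc1, Uqcrc2, Sdhd, Atp5a1 and Atp5b were among the 6, as was Cox7a2l.

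Other cell types moved with PMA in ND mice, and their part in these results was not tested. Of the neutrophil markers 4 of 5 tested rose, with a summed level of 9.18 to 22.6 CPM in ND_cont and 83.8 to 255 CPM in ND_PMA (Ly6g was at 0 in 14 of 16 libraries). Of the macrophage and monocyte markers 3 of 6 rose (687 to 804 against 870.3 to 1281 CPM). Of the adipocyte markers 5 of 8 fell (441 to 628 against 214 to 391 CPM). Of the keratinocyte markers 3 of 7 rose and 1 fell (16547 to 21440 against 21553 to 24392 CPM). Of the sebocyte, fibroblast and chondrocyte markers 3 of 7, 2 of 6 and 1 of 5 fell. None of the 12 tested skeletal muscle markers passed (5400.2 to 14687 against 4806 to 10972 CPM).

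In HFD mice, whose groups share no library with those of the ND comparison, 4 of 77 genes rose with PMA and none fell. Over all genes 7.34% were called higher and 4.6% lower, so the members' share of 5.19% was no larger than the background. The median was 0.19 on the log2 scale, against -0.017 over all genes, and 61 of 77 genes stood above 0. Without HFD_PMA replicate 1 the median was -0.058 and 2 genes passed. The groups did not overlap for 6 members that were higher and 1 that was lower with PMA, against 10.8% and 7.93% of all genes. Sdhd stood at 99.1, 128, 112 and 116 CPM in HFD_cont and at 141, 199.9, 202 and 184 CPM in HFD_PMA, without overlap (log2 fold change 0.67 ± 0.16, edgeR adjusted p = 0.00777). Uqcrc1 stood at 806, 917, 856 and 818 CPM and at 1090.2, 1281, 1196 and 1124 CPM (log2 fold change 0.47 ± 0.11, edgeR adjusted p = 0.0104). Its treated libraries all lay above the untreated ones, but the call was lost without HFD_cont replicate 4 or HFD_PMA replicate 2. Uqcrc2 had 158 ± 21.7 CPM without and a higher 206 ± 11.2 CPM with PMA (log2 fold change 0.39 ± 0.12, edgeR adjusted p = 0.041) and Atp5o 78.7 ± 12.9 and 112 ± 19.5 CPM (log2 fold change 0.52 ± 0.16, edgeR adjusted p = 0.0377). Of the 8 fits that each left out 1 library, 7 lost the call of Uqcrc2 (all but that without HFD_cont replicate 2). For Atp5o 6 of 8 lost it (all but those without HFD_cont replicate 1 or HFD_PMA replicate 3).

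The prefix bears less on the comparison in HFD mice. In a fit of the 11 libraries with the RHP prefix, of which 7 are from HFD mice, 4 genes passed. Shared with the fit of all libraries were 3 of them: Sdhd (0.61, edgeR adjusted p = 0.0245), Uqcrc1 (0.44, edgeR adjusted p = 0.0171) and Atp5o. Uqcrc2 dropped out, and Cox7a2l passed with a decrease of -0.59 on the log2 scale (edgeR adjusted p = 0.0267). With all libraries Cox7a2l stood at 182, 216, 236 and 264 CPM in HFD_cont and at 123, 149, 181 and 181 CPM in HFD_PMA, just short of overlap, and missed the threshold (-0.50 ± 0.17, edgeR adjusted p = 0.0592). By complex, 0 of 36 genes of complex I, 1 of 4 of complex II, 2 of 8 of complex III, 0 of 12 of complex IV and 1 of 17 of complex V rose, and the medians were 0.19, 0.26, 0.33, 0.051 and 0.18. In HFD_PMA the summed neutrophil markers reached 290 to 1213 CPM against 21.4 to 60.4 CPM in HFD_cont (5 of 5 rose), adipocyte markers were 152 to 220.2 against 271 to 452 CPM (4 of 8 fell), and 4 of 12 skeletal muscle markers fell (4271 to 5164 against 3893 to 9058 CPM). Of the macrophage and monocyte markers 3 of 6 rose (590 to 989 against 518 to 689 CPM). Of the keratinocyte markers 1 of 7 rose and 3 fell (27032 to 29099 against 23668 to 26850 CPM), and 2 of 7 sebocyte, 1 of 6 fibroblast and 4 of 5 chondrocyte markers fell. Their part in the subunit results was not tested.

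**Figure D3:**
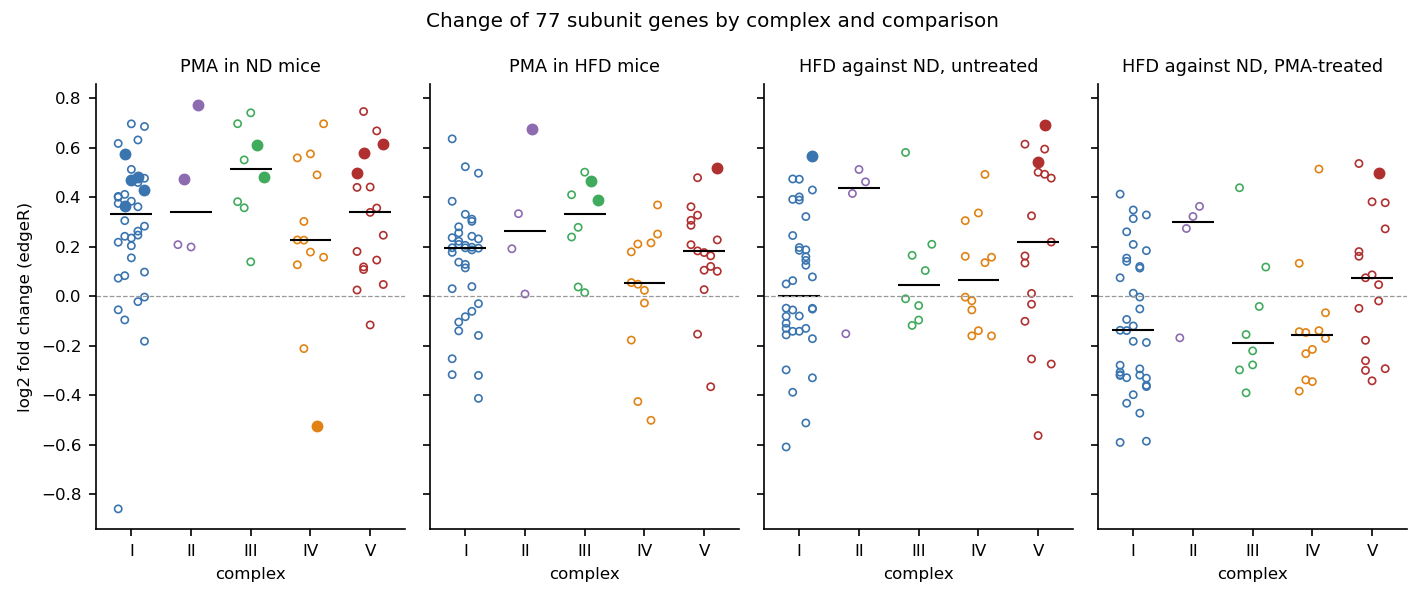
Log2 fold change (edgeR) of the 77 tested subunit genes by complex in 4 comparisons; filled points passed the test, open points did not, and black lines are medians. Under PMA the medians of all 5 complexes lie above 0 in both diets, with complex IV lowest (0.23 and 0.051), and few points are filled under diet.

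The test of a different PMA response in the 2 diets, the diet by PMA interaction, was called in 0 of 77 genes by edgeR and in 0 by DESeq2, 0 members had an unadjusted p below 0.05, and over all genes 0.00568% (1 gene) were called. The estimates with the smallest p were those of Cox5a, Atp5g3 and Ndufa8, at -0.55 ± 0.31, -0.55 ± 0.31 and -0.32 ± 0.21 on the log2 scale (edgeR adjusted p = 0.999 for each). For Sdhd the interaction was -0.10 ± 0.22 and for Cox7a2l 0.022 ± 0.24. Of the 77 estimates 12 stood above 0, with a median of -0.17 against -0.044 over all genes. With the prefix as covariate the median was -0.51 (long genes, as defined further on, -0.0043 and short genes -0.65) and 0 genes passed. It was -0.037 without HFD_cont replicate 1, -0.064 without ND_PMA replicate 2 and -0.087 without HFD_PMA replicate 3. It was -0.090 without ND_cont replicate 2, -0.30 without HFD_PMA replicate 1 and -0.0095 with the short-minus-long mean described further on as covariate. With SEs of this size, 4 libraries a group cannot resolve differences of this order.

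The diet alone moved few subunits. In untreated skin 3 of 77 genes were higher in HFD than in ND mice and none lower, where 3.93% of all genes were called (2.87% higher and 1.06% lower), and the median was 0.10 on the log2 scale against -0.023 over all genes. The sign of this median rests on HFD_cont replicate 1, without which it was -0.0091 and 4 genes passed. It was 0.034 without ND_cont replicate 1, 0.040 without ND_cont replicate 2, 0.20 without ND_cont replicate 3 and 0.18 without ND_cont replicate 4. It was -0.22 with the short-minus-long mean described further on as covariate. Atp5d, the delta subunit of the central stalk of ATP synthase (chromosome 10, 80138632 to 80145818), stood at 102, 92.8, 109.9 and 81.2 CPM in ND_cont and at 155, 147, 153 and 168 CPM in HFD_cont. The groups did not overlap (log2 fold change 0.69 ± 0.13, edgeR adjusted p = 0.00329). Ndufv2 had 69.7 ± 15.2 CPM in ND_cont and a higher 103 ± 7.56 CPM in HFD_cont (log2 fold change 0.56 ± 0.14, edgeR adjusted p = 0.0262) and Atp5c1 228 ± 44.4 and 332 ± 44.1 CPM (log2 fold change 0.54 ± 0.14, edgeR adjusted p = 0.0379). Both lost their call without ND_cont replicate 3 or 4 or HFD_cont replicate 3 or 4, Ndufv2 also without HFD_cont replicate 1 and Atp5c1 also without HFD_cont replicate 2. Atp5d kept it in all 8 such fits. Levels did not overlap for 8 members higher on HFD and 0 lower, against 7.18% and 5.46% of all genes.

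The prefix also divides this comparison, since all ND_cont libraries and only HFD_cont replicate 1 carry RHS. Without the HFD_cont libraries of the RHP prefix, Atp5d had a log2 fold change of 0.71 that rests on 1 HFD library. The PMA-treated libraries, all RHP, stayed in that fit. With the prefix as covariate the value of Atp5d was 0.69 (edgeR adjusted p = 0.118). The median of the 77 genes was 0.39 in the fit with only RHS libraries in untreated skin and 0.37 with the covariate. For genes with a coding sequence of 600 bases or more it was 0.097 with the covariate and 0.28 without. For shorter ones it was 0.45 and -0.019. Keratinocyte markers were also higher on HFD (5 of 7 rose, 16547 to 21440 against 23668 to 26850 CPM), and fibroblast markers lower (4 of 6 fell, 8636 to 10992 against 5579 to 6589 CPM). Hair shaft markers, 12 in all, ran from 10.1 to 53.4 CPM in ND_cont and from 76.3 to 2597 CPM in HFD_cont, highest in HFD_cont replicate 1. The part of these cells in the 3 calls was not tested.

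In PMA-treated skin Atp5d was again the gene that differed by diet, and the only 1 of 77, where 0.943% of all genes were called higher and 1.26% lower. It stood at 124, 150.01, 116 and 104 CPM in ND_PMA and at 158, 192, 159 and 189.7 CPM in HFD_PMA (log2 fold change 0.50 ± 0.13, edgeR adjusted p = 0.041). The treated libraries did not overlap, and each carries the RHP prefix. The call was narrow: it was lost in 5 of 8 fits that left out 1 library (ND_PMA replicates 1, 3 and 4, HFD_PMA replicates 2 and 4), and among RHP libraries alone the value was 0.50 (edgeR adjusted p = 0.0559). Atp5d shares 68 exon bases with Cbarp on the opposite strand. The median of the 77 genes was -0.14 on the log2 scale, against -0.033 over all genes, and 30 of 77 stood above 0. The sign of this median rests on single libraries: it was 0.034 without ND_PMA replicate 2 and 0.0033 without HFD_PMA replicate 3, and it was -0.053 and -0.062 without HFD_PMA replicates 2 and 4. Levels did not overlap for 3 members higher on HFD and 0 lower, against 3.93% and 4.71% of all genes. Keratinocyte markers ranged from 21553 to 24392 CPM in ND_PMA and from 27032 to 29099 CPM in HFD_PMA (1 of 7 rose), and 3 of 6 fibroblast markers fell (6312 to 8882 against 3794 to 6004 CPM). Their part in the call was not tested.

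None of the complex II genes passed under diet. In untreated skin Sdhb, Sdhc and Sdhd stood at 0.41 ± 0.15, 0.51 ± 0.20 and 0.46 ± 0.16 on the log2 scale (edgeR adjusted p = 0.142, 0.167 and 0.121), while Sdha stood at -0.15 ± 0.10. In PMA-treated ears the values were 0.27 ± 0.15, 0.32 ± 0.19 and 0.36 ± 0.16 against -0.17 ± 0.10 for Sdha, all short of the threshold. Cox7a2l stood at 0.49 ± 0.17 in untreated and 0.51 ± 0.17 in PMA-treated skin (edgeR adjusted p = 0.12 and 0.125), opposite in sign to its values under PMA.

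Several subunits have more than 1 gene. Cox4i1, the common form of a regulatory subunit of complex IV, had 91.5 RPKM and Cox4i2, known from lung and from low oxygen, 2.20 RPKM. Cox6b1 had 51.7 RPKM and Cox6b2 0.342. Cox7a2 had 33.1 RPKM against 143 for Cox7a2l, which is set beside it by symbol only. Among the 3 genes that encode the same c subunit of the ATP synthase ring, Atp5g3 had 10.1, Atp5g1 5.61 and Atp5g2 1.26 RPKM. By the coding transcript, however, Atp5g1 led with 46.2 RPKM before Atp5g3 with 30.8, so that their order is not settled. Levels of the minor forms did not pass any test: Cox4i2 ranged from 0.650 to 2.79 CPM and Atp5g2 from 1.06 to 3.34 CPM over the 16 libraries. Ndufa4 stood at 49.97 ± 11.7, 56.9 ± 17.4, 81.0 ± 14.3 and 81.6 ± 39.3 CPM in ND_cont, HFD_cont, ND_PMA and HFD_PMA. With PMA its log2 fold change was 0.70 ± 0.26 in ND and 0.52 ± 0.26 in HFD mice (edgeR adjusted p = 0.0865 and 0.224), and the last mean contains HFD_PMA replicate 1 at 140.3 CPM.

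The genes varied among the libraries of a group by the length of their coding sequence. The 55 genes with a coding sequence under 600 bases had a median within-group SD of 0.41 on the log2 CPM scale, and the 22 longer genes 0.18. Across the 77 genes this SD had a Spearman rho of -0.76 with coding length and of -0.72 with mean CPM, and length and level were themselves related (rho 0.68), so that their parts cannot be told apart. The spread overlapped between the classes, from 0.17 to 0.67 among short and from 0.12 to 0.40 among long genes. Just below the limit, Ndufb5 (567 bases) had an SD of 0.18, and Atp5s, at 600 bases exactly, had the highest of the long genes. Cox7c was an exception among the shortest, with a coding sequence of 189 bases and an SD of 0.18.

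**Figure D4:**
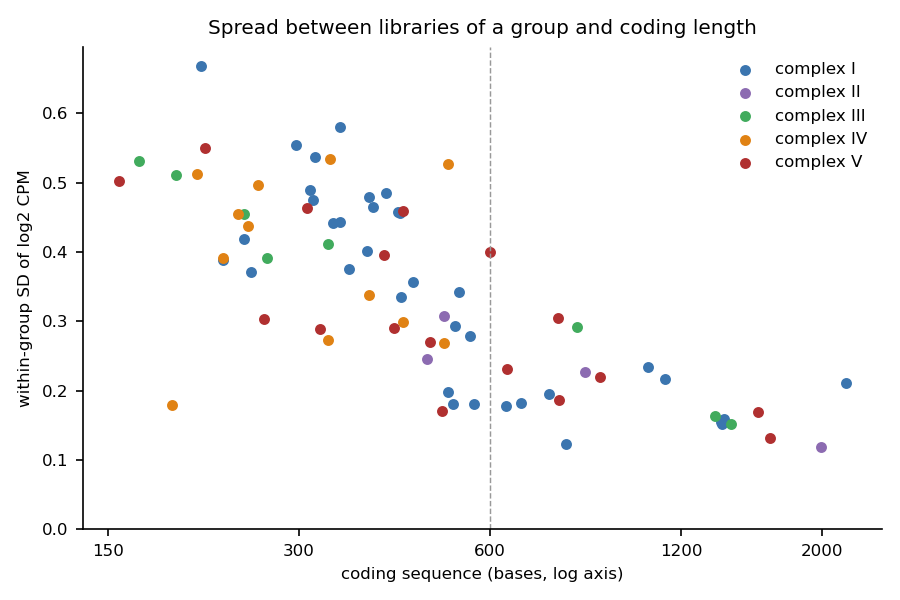
Within-group SD of log2 CPM against the length of the coding sequence (log axis) for the 77 tested genes, coloured by complex, with a dashed line at 600 bases. Genes under 600 bases spread around a median SD of 0.41 and longer ones around 0.18.

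The short genes went up and down together. Their deviations from the group means had a median pairwise Pearson correlation of 0.70 over the 16 libraries, against 0.32 among the long genes and -0.21 between short and long. As a mean over the 55 short genes, relative to each gene's mean over all libraries, HFD_PMA replicate 1 stood at 0.58, ND_PMA replicate 2 at 0.46 and HFD_cont replicate 1 at 0.36 on the log2 scale. The lowest values were -0.38 in ND_cont replicate 2, -0.32 in HFD_PMA replicate 3 and -0.32 in ND_cont replicate 1. In HFD_PMA replicate 1 the cytosolic ribosomal protein genes, 93 genes of any length chosen after these values were seen, stood at 0.43, and in HFD_cont replicate 1 also at 0.43, while in ND_PMA replicate 2 they stood at 0.18. The same was asked of other tested protein-coding genes with a mean of at least 5 CPM, without the members and the mitochondrially encoded genes. The mean of the 1354 under the limit minus that of 10249 longer ones also was highest in HFD_PMA replicate 1 (-0.078) and HFD_cont replicate 1 (-0.092). ND_PMA replicate 2 (-0.20) did not stand out, below HFD_PMA replicate 4 (-0.12). This difference ran from -0.58 to -0.42 in ND_cont, where replicates 3 and 4 were the lowest although the short members stood at 0.079 and 0.15 there.

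**Figure D5:**
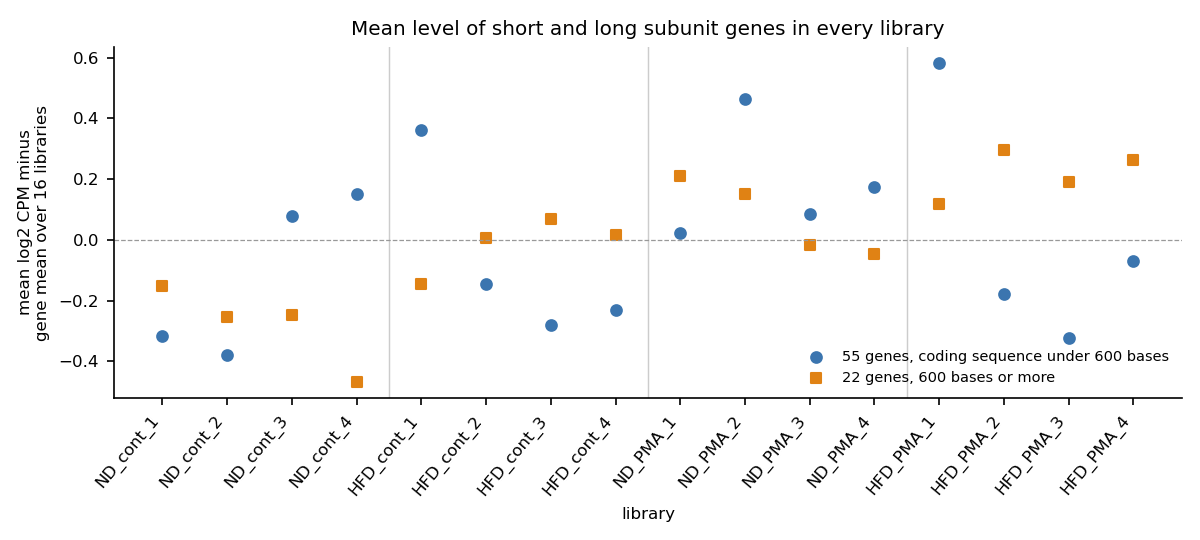
Mean log2 CPM of the 55 short and 22 long subunit genes in each of the 16 libraries, each gene relative to its own mean over all libraries. Short genes peak in HFD_PMA 1 (0.58), ND_PMA 2 (0.46) and HFD_cont 1 (0.36), while long genes are lowest in the 4 ND_cont libraries.

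The classes also differed in how their medians held when a library was left out. Under PMA in ND mice 10 of 22 long genes rose, with a median of 0.40 on the log2 scale, against 2 that rose and 1 that fell of 55 short ones, with a median of 0.28. In HFD mice 3 of 22 long and 1 of 55 short genes rose, with medians of 0.24 and 0.16. Leaving out HFD_PMA replicate 1 turned the median of the short genes in HFD mice to -0.19 and that of all 77 to -0.058, while the long genes stayed at 0.28 with 20 of 22 above 0. Without ND_PMA replicate 2 the short genes had a median of 0.16 in ND mice and the long genes 0.32. The short-minus-long mean of the genes outside the set was also used as a covariate, added after the data were seen. With it the medians under PMA in ND mice were 0.29 for long and 0.0024 for short genes, and 3 genes passed. Among all genes that fit called 718 higher and 165 lower, against 1577 and 702 without the covariate. By diet, without a covariate, the long genes had a median of 0.28 in untreated and 0.16 in PMA-treated skin, and the short genes -0.019 and -0.18. The long genes did not hold their medians with the prefix as covariate. Under PMA in ND mice that fit gave 0.15 for long and 0.95 for short genes. For diet in untreated skin it gave 0.097 and 0.45.

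Other nuclear genes for mitochondrial proteins were counted in lists, beside which 8.96% of all genes were called higher with PMA in ND and 7.34% in HFD mice. In ND mice 10 of 20 genes of import and the inner membrane rose and none fell (median 0.45 on the log2 scale), among them Timm50 of the inner membrane import machinery, from 64.1 ± 8.25 to 117.6 ± 4.49 CPM (log2 fold change 0.88 ± 0.11, edgeR adjusted p = 2.26e-05), and prohibitin Phb (0.89 ± 0.12, edgeR adjusted p = 3.85e-05). In HFD mice 8 of 20 rose (median 0.33), with Timm50 at 0.63 ± 0.11 (edgeR adjusted p = 0.000793). Of 76 mitochondrial ribosomal protein genes 13 rose in ND (median 0.32) and 6 in HFD mice (median 0.17), and of 13 citric acid cycle genes 3 and 1, among them Mdh2, malate dehydrogenase, in both. Assembly factors followed for 3 of 29 genes of complexes II to V in ND and 2 of 29 in HFD mice, both times with Cox10, needed for the heme of complex IV (0.88 ± 0.18 in ND, edgeR adjusted p = 0.00269, and 0.95 ± 0.18 in HFD mice, edgeR adjusted p = 0.00174). Of 15 complex I assembly genes 0 rose in ND and 1, Ndufaf4, in HFD mice. Of 18 regulators of mitochondrial biogenesis, Pprc1 rose in ND (0.53 ± 0.16, edgeR adjusted p = 0.0348) and Ppara fell in HFD mice (-1.15 ± 0.32, edgeR adjusted p = 0.0232).

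Of the 13 subunits encoded by mitochondrial DNA, 0 passed under PMA in either diet by edgeR, with medians of 0.24 in ND and 0.052 in HFD mice on the log2 scale. By diet 3 rose in untreated skin (median 0.56), among them mt-Co1, the catalytic subunit of complex IV, from 4597 ± 502 to 6762 ± 896 CPM (log2 fold change 0.56 ± 0.13, edgeR adjusted p = 0.0204), and 1, mt-Nd1, in PMA-treated skin (0.75 ± 0.17, edgeR adjusted p = 0.0267). Their summed level ran from 12257 to 17789 CPM in ND_cont, 17559 to 24199 in HFD_cont, 11832 to 21634 in ND_PMA and 20028 to 27852 in HFD_PMA. The difference between the nuclear and the mitochondrially encoded genes was not itself tested.

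Several electron transport genes lie outside the symbol rule. Cyc1, cytochrome c1 of complex III, stood at 186, 173, 186 and 129.9 CPM in ND_cont, 215, 243, 252 and 246 in HFD_cont, 294, 338, 237 and 227 in ND_PMA and 301, 399.8, 362 and 366 in HFD_PMA. It rose with PMA in ND (log2 fold change 0.70 ± 0.14, edgeR adjusted p = 0.00175) and HFD mice (0.58, edgeR adjusted p = 0.00833) and with the diet in untreated skin (0.50 ± 0.14, edgeR adjusted p = 0.0455). Ndufa4l2, a relative of Ndufa4 known to be induced at low oxygen, stood at 9.87, 12.5, 11.1 and 9.99 CPM in ND_cont against 25.8, 24.1, 25.1 and 36.2 in HFD_cont, and 11.8, 9.46, 4.26 and 11.7 in ND_PMA against 57.0, 65.9, 38.3 and 36.0 in HFD_PMA. The groups did not overlap in either pair (log2 fold change 1.35 ± 0.27, edgeR adjusted p = 0.00683, and 2.41 ± 0.28, edgeR adjusted p = 0.000524). It also rose with PMA in HFD mice (0.83 ± 0.26, edgeR adjusted p = 0.0432), while in ND mice it did not pass (-0.23, edgeR adjusted p = 0.669). The muscle forms Cox6a2, Cox7a1 and Cox8b were low, with no group mean above 11.9, 2.87 and 4.747 CPM, and passed in no comparison.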

How the data were processed

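Ear skin RNA of 16 libraries was sequenced after SMART-Seq2 amplification of 2 ng of RNA, per the labels' protocols, which name no strand marking and no molecular identifiers. The authors deposited raw read counts per gene with gene lengths. Per the submitters' processing notes, STAR 2.3, featureCounts 1.5 and GRCm38/mm10 were used, with settings that no source used here states. Genes were fitted with edgeR 4.0.16 (R 4.3.3; TMM factors, robust quasi-likelihood test) as 4 group means over 16 libraries, after filterByExpr (minimum count 10, minimum total 15), which left 17604 of 48440 genes. P-values were adjusted by Benjamini-Hochberg over all genes tested at 0.05, and each SE was taken as the absolute log2 fold change over the root of the F statistic. Log2 CPM used a prior count of 2. RPKM divides CPM by the deposited length. Copies were found with BLASTN 2.17.0+, and coding lengths come from GENCODE M21. Promoters come from RefSeq (GRCm38.p6).

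The members and lists were chosen with earlier results of these data known. Statistics are given for called members with a mean of at least 5 CPM, at most 10 in each direction, and for the Sdh genes, paralogs and Ndufa4 whatever their test. The values of 1 member are not reported here, though counts and medians include it. The alternatives were other normalisations and filters, DESeq2 1.42.0, replicate and prefix terms, and left-out libraries. Simulated data used each gene's mean over all 16 libraries, with changes set in ND_PMA (17604 genes, 2 simulations). Genes were drawn independently, and the changed ones came from those of at least 5 CPM. There the test recovered 27% of genes changed 1.5-fold, 62% of those changed 2-fold and 98% of those changed 4-fold. It recovered 55% of those changed 0.5-fold. Total counts of 7739487 to 15571389 per library limit genes of low level, and intervals over libraries include this counting error.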

Additional observations from a re-analysis of the deposited data

Results flagged for a closer look

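Of 152 groups of 4 libraries checked over 29 genes and the complex means, 12 held a library far from the others by Dixon's criterion, which chance meets in about 1 group in 20. HFD_PMA replicate 1 was high for Ndufa4 (140.3 CPM, others 56.2 to 66.6), Cox6b1 (65.8 CPM, others 21.9 to 28.9) and Cox7b (34.2 CPM, others 12.4 to 14.5), and low for Sdhb (150.4 CPM, others 185 to 191). HFD_cont replicate 1 was high for Cox4i1 (196 CPM, others 131 to 138), Cox7b (23.1 CPM, others 12.8 to 14.1) and Cox8c (0.124 CPM, from 1 count, others 0), and low for Atp5b (1022 CPM, others 1225 to 1259). Its mean over the complex I genes was 0.277 on the log2 scale, where the others lay between -0.244 and -0.157. ND_PMA replicate 2 was high for Cox5a (37.5 CPM, others 25.3 to 27.2) and for the complex I mean (0.379 on the log2 scale, others 0.0755 to 0.125). ND_cont replicate 3 was high for Atp5a1 (924 CPM, others 705 to 736). HFD_PMA 1 and HFD_cont 1 differ in their ID prefix, RHP and RHS.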

How the results depend on the processing

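No gene that passed the test changed sign in an alternative. Of 2014 fold changes and medians under alternatives, 164 had another sign than reported, none of them of a gene that passed. Among these were 6 medians over the members, in HFD mice under PMA (-0.058 without HFD_PMA 1, -0.068 without ND_PMA 2 and HFD_PMA 1), for diet in untreated skin (-0.0091 without HFD_cont 1, -0.22 with the short-gene mean) and for diet in PMA-treated skin (0.034 without ND_PMA 2, 0.0033 without HFD_PMA 3), and Sdhc under PMA in ND mice (-0.35 with the prefix as covariate). Of 77 genes, those called for PMA in ND mice numbered 13, and 0 with the library prefix as covariate, 6 in a fit of the 8 libraries compared, 6 without ND_PMA 2 and HFD_PMA 1, and 3 with the short-gene mean as covariate (Uqcrc1, Atp5b and Atp5a1). Among all genes the prefix covariate left 388 called higher and 65 lower, and the short-gene mean 718 and 165. For PMA in HFD mice 4 became 2 with no low-count filter and 2 without those libraries. For diet in untreated skin 3 became 5 with the stricter filter, 8 by DESeq2 and 7 without those 2 libraries. They became 0 with the prefix as covariate and with the short-gene mean. The first of these fits called 163 of all genes higher and 16 lower, and the second 12 and 0. Without a covariate 505 were called higher and 186 lower. For diet in PMA-treated skin 1 became 2 by DESeq2 and 0 with the replicate block, the prefix covariate, RHP libraries alone, the 8 libraries compared and the short-gene mean. The causes were not tested. Leaving out 1 library gave 7 to 14 (PMA in ND, 7 without ND_PMA 2, and 8 without ND_cont 2, ND_cont 3 or ND_PMA 1), 1 to 4 (PMA in HFD, 1 without HFD_cont 4 or HFD_PMA 2, 2 without HFD_cont 3 or HFD_PMA 1), 1 to 5 (diet untreated, 5 without ND_cont 1, 1 without ND_cont 3 or 4 or HFD_cont 3 or 4) and 0 to 1 (diet with PMA). The interaction stayed at 0 in every alternative run. Same-numbered replicates correlated between -0.067 and 0.20 in their deviations, and numbers were not taken to pair the samples. Within ND mice, untreated against PMA-treated, the values were 0.083, -0.061, -0.066 and 0.069. Within HFD mice they were 0.20, 0.014, 0.12 and 0.079, so a pairing there remains possible. The replicate block gave 11 genes for PMA in ND mice, 3 in HFD mice and 3 for diet in untreated skin. With upper-quartile factors the split over all genes for PMA in ND mice was 1320 higher and 938 lower, against 1577 and 702. Low genes such as Cox4i2 and Atp5g2 are limited by depth.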
